A study of Mus musculus with 4 samples.

Results

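The genes that license and unwind replication origins were followed in group 2 innate lymphoid cells (ILC2s) of the mouse colon treated with FK866. The set held 10 genes listed by name and found in the deposited table by Ensembl ID, out of 55487 gene IDs. They are the helicase subunits Mcm2, Mcm3, Mcm4, Mcm5, Mcm6 and Mcm7, the loaders Cdc6 and Cdt1, and the activation factors Mcm10 and Cdc45. The set was not chosen by its values, but it was proposed with earlier results of these data known. FK866 libraries (n = 2) came from sorted ILC2s kept in the alarmins IL-33 and IL-25 with IL-7 and IL-2, and exposed for 16 h to FK866, an inhibitor of NAMPT, the enzyme that recycles nicotinamide into NAD+. Control libraries (n = 2) came from ILC2s of the same tissue labelled as control, in the same set of cytokines. The labels give no strain, age, vehicle or FK866 dose, and do not say whether the replicates are separate cultures or animals, so the p-values below rest on library-to-library spread that may be technical.

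Each origin of replication is prepared before S phase by a step called licensing. The origin recognition complex (ORC), CDC6 and CDT1 load pairs of ring-shaped MCM2-7 hexamers onto DNA, where they wait inactive. At the start of S phase CDC45 and the GINS complex join each ring to form the CMG helicase, which MCM10 helps to activate, and CDT1 is then held back by geminin and destroyed so that no origin is licensed again. Most of these genes are textbook targets of E2F transcription factors, are low in resting lymphocytes and are induced when cytokines drive lymphocytes into the cell cycle.

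All 10 genes were lower in FK866 than in control, and in each of them both FK866 libraries lay below both controls. Every one passed the quasi-likelihood F test of edgeR, with a p adjusted over all 19194 genes below 0.05. Of all genes tested, 13.2% were called, 7.89% lower and 5.31% higher, and 29.3% had both FK866 libraries below both controls. The median log2 fold change of the 10 genes was -1.31, against 0.03 over all genes tested. The loader Cdc6 and the activation factor Mcm10 had the lowest fold changes, at log2 -2.61 and -2.39, and Mcm6 the one nearest to 0, at -0.80. These samples are bulk RNA, so fewer cells of a type (such as cells in S phase) and less RNA per cell cannot be told apart.

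Library totals were 27617750 and 32241615 counts in FK866 and 37841233 and 32540325 in control. In FK866 replicate 2, 22461 genes reached 10 counts, more than the 17152 to 18667 of the others, and the named genes that lose their call without it are given below. The 10 markers of ILC2s fixed for the check of cell type summed to between 3536 and 4237 CPM (the share of a gene in its library, scaled to 1000000) in FK866 and between 3784 and 4086 CPM in control, and none was under 1 CPM in all libraries. Of these 10 markers Rora was called higher (log2 1.70), Nmur1 (-1.18) and Il13 (-1.49) were called lower, and 7 were not called. T cell, B cell, macrophage, mast cell, epithelial and NK cell markers are given at the end.

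Promoter windows of 300 bases (250 before and 50 from the annotated start on) were read from RefSeq on GRCm38.p6, the build of the counts, because the genes moved together. Of the 10 genes, 9 matched the table, with 10 windows since Mcm7 has 2, and Mcm4 is named only. E2F words were searched as TTTCCCGC, TTTCGCGC, TTTGCCGC and TTTGGCGC on both strands. At least 1 such word stood in the windows of 6 of the 9 genes (Mcm3, Mcm5, Mcm6, Mcm7, Cdc6 and Cdt1), against 2.60% of the 27025 genes and 2.26% of the 32851 windows of the table. The letters were not found in the windows of Mcm2, Mcm10 and Cdc45. The Mcm10 window ends in TTTGGCG, so a TTTGGCGC cut by its edge would have been missed. The windows below show where the words lie in 4 genes that carry them. Also shown is the window of Mcm10, the gene with the second lowest fold change, in which no whole word was found. Letters are lower case with E2F words in capitals, each read 5′ to 3′ on the strand of its gene.
Mcm5, chr8:75109259-75109558, plus strand: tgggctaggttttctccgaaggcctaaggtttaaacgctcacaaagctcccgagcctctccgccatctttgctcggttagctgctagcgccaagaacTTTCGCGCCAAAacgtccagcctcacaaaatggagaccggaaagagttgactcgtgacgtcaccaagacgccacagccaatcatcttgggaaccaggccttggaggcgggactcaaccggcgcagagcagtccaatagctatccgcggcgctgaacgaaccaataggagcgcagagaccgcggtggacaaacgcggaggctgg
Mcm6, chr1:128359656-128359955, minus strand: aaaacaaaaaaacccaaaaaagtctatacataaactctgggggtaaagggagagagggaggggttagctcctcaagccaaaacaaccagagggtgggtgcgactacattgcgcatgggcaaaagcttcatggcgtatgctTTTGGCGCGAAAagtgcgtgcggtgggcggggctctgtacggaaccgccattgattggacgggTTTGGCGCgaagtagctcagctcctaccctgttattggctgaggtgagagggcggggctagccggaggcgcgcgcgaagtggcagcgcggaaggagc
Mcm7, chr5:138171834-138172133, minus strand: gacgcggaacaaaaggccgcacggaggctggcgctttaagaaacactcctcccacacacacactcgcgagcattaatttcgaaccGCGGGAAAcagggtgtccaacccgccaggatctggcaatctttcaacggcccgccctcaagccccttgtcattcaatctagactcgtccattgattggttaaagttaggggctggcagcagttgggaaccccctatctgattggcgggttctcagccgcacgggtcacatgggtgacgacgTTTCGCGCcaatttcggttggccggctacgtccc
Cdc6, chr11:98907901-98908200, plus strand: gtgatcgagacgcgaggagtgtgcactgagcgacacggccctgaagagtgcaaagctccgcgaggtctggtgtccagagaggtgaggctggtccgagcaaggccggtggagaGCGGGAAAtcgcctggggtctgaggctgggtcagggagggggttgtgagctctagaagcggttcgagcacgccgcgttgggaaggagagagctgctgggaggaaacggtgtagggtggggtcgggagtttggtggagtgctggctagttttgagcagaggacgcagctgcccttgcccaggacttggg
Mcm10, chr2:5012742-5013041, minus strand: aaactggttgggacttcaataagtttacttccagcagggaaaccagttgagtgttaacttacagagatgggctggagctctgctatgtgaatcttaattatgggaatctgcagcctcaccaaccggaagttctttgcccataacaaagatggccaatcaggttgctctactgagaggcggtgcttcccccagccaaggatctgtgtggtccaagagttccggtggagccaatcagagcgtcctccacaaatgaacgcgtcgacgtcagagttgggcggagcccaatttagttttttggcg

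In Mcm5 the word TTTCGCGC and the reverse of TTTGGCGC overlap and begin 153 bases before the start. Mcm6 holds 3 words, an overlapping pair that begins 110 bases before the start and another word 47 bases before it. Its fold change was the nearest to 0 of the 10, a place that Cdc45 took once a trend on transcript length and GC content was removed. Mcm7 holds 1 word 165 bases before the RefSeq start of the window shown and 1 that begins at base 17 after it. Cdc6 holds 1 word, on the reverse strand, 138 bases before the start that RefSeq gives. GENCODE M21 starts both genes further upstream, Mcm7 at chr5:138172422 and Cdc6 at chr11:98907801. The windows shown for these genes, with their words, therefore lie inside the GENCODE gene bodies. Among the 12131 tested genes with a window, 8.33% of the 1200 called lower held an E2F word, against 4.50% of the 756 called higher and 3.68% of the 10175 not called. The CCAAT box (letters CCAAT, both strands), bound by the general activator NF-Y, stood in 7 of the 9 genes against 41.1% of all genes of the table, and the cell cycle homology region (letters TTTGAA, both strands), an element of G2 and mitosis genes, in 2 of the 9 against 20.2%. The E-box of MYC (CACGTG) stood in none of the 9, against 8.09%, and the GC box of SP1 (GGGCGG, both strands) in 7 of the 9, against 38.2%. Among the 12131 tested genes with a window the GC box stood in 62%, a larger share than in the whole table. In those tested genes the shares were 4.19% for E2F words, 42.6% for CCAAT, 15.5% for TTTGAA and 10.8% for CACGTG. In no window did a CCAAT box overlap an E2F word except in Mcm7, where CCAAT begins inside the end of TTTCGCGC. Split by call, the box of SP1 stood in 66.9% of genes called lower, 73.7% of those called higher and 60.6% of those not called. In the same order the shares were 13.2%, 13% and 10.3% for the E-box, and 45.6%, 41% and 42.3% for the element of NF-Y. For the cell cycle homology region they were 14.8%, 12.6% and 15.8%. The shares by call, with those of E2F words, were not tested. All these matches are descriptions of letters and no evidence of binding.

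The subunits of the helicase ring were the most abundant of the 10 genes. Mcm2, whose product also carries histones past the fork, had 159 and 146 CPM in FK866 replicates 1 and 2, against 452 and 373 CPM in control replicates 1 and 2. The groups lay far apart, with the highest FK866 library below the lowest control. The log2 fold change was -1.44 ± 0.14 (SE), 2.71-fold lower in FK866 (edgeR adjusted p = 0.00124), the lowest of the 6 subunits, a place taken by Mcm5 without FK866 replicate 2 and by Mcm7 without control replicate 1. Mcm5, whose product forms with MCM2 the gate through which the ring opens, had 145 and 146 CPM in FK866 libraries, against 419 and 348 CPM in controls. The FK866 libraries were nearly alike and the controls differed between themselves. Its log2 fold change was -1.40 ± 0.14 (edgeR adjusted p = 0.00123).

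Mcm7, a subunit that works beside MCM4 and MCM6 in the core of the motor, had 111 and 105 CPM in FK866 libraries, against 289 and 268 CPM in controls. Replicates were close in both groups. The fold change was log2 -1.37 ± 0.13 (edgeR adjusted p = 0.00110). Exons of other annotated genes cover 12.6% of the Mcm7 exon bases, so that part of its counts may be shared with them in these libraries, which do not mark the strand. Mcm4 had 151 and 133 CPM in FK866 libraries, against 313 and 346 CPM in controls, the only subunit whose second control library was the higher one. On the log2 scale Mcm4 changed by -1.21 ± 0.14 (edgeR adjusted p = 0.00186).

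Mcm3, whose product ties the ring to ORC and CDC6 during loading, had 192 and 153 CPM in FK866 libraries, against 448 and 373 CPM in controls. It had the widest spread between FK866 libraries among the subunits, with an SD of 27.7 CPM, and the groups were still separate. Mcm3 had a log2 fold change of -1.25 ± 0.16 (edgeR adjusted p = 0.00302). Mcm6, the most abundant subunit in every library, had 333.5 and 309 CPM in FK866 libraries, against 596 and 521 CPM in controls. The groups did not overlap. The difference was log2 -0.80 ± 0.13, 1.74-fold lower in FK866 (edgeR adjusted p = 0.00712).

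**Figure D1:**
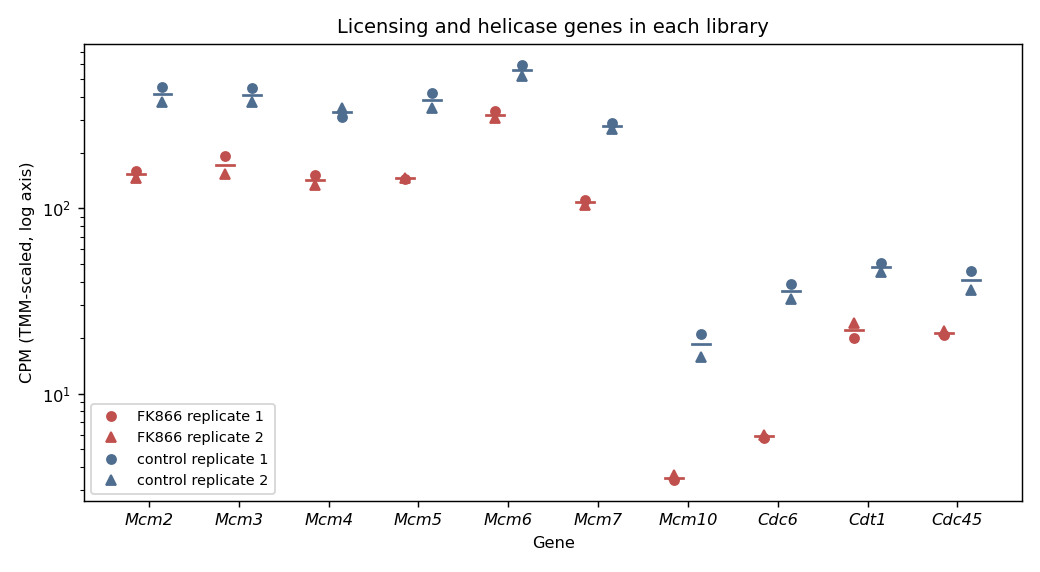
CPM of the 10 genes on a log axis in each of the 4 libraries, FK866 left of control for each gene; circles are replicate 1, triangles replicate 2 and short lines group means (n = 2 each). In every gene both FK866 points lie below both control points, from Mcm6 (309 to 333.5 against 521 to 596 CPM) down to Mcm10 (3.41 to 3.62 against 15.8 to 21.0 CPM).

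The ring holds each subunit once, so the make-up of the MCM2-7 transcripts was described as the share of each subunit in their summed level per kilobase of longest transcript, a quantity that no scaling between libraries can change. The summed level of the 6 subunits was 591 and 588 TPM (length-corrected share, scaled to 1000000) in FK866 libraries, against 1370 and 1219 TPM in controls, so that FK866 libraries held 45.6% of the control mean. Mcm6 made up 25.5% and 26.0% of the sum in FK866 libraries, against 19.4% and 19.1% in controls. That is a mean difference of 6.46 percentage points, with SDs of 0.35 and 0.19 points in FK866 and control. Mcm2 made up 15.1% and 15.3% in FK866 libraries, against 18.3% and 17.1% in controls. The shares of Mcm5 and Mcm7 were also lower in both FK866 libraries than in both controls, with mean differences of -1.95 and -1.43 points, while those of Mcm3 and Mcm4 overlapped between the groups. The 6 shares are parts of the same sum, so a higher share of Mcm6 lowers the others together. The lower shares of Mcm2, Mcm5 and Mcm7 are therefore not independent of that of Mcm6. Mcm6 was the subunit with the fold change nearest to 0 in all 13 alternative settings tried. Fold changes rose with transcript length over 9296 protein-coding genes (Spearman rho 0.33), and Mcm6 has the longest transcript of the 6 subunits (4355 bases). With a trend on transcript length and GC content removed, Mcm6 stood at log2 -0.82 and the next subunit, Mcm4, at -1.15, against -0.80 and -1.21 before. The part of that trend in the shares was not tested. These shares were not tested, since 2 libraries against 2 allow no exact two-sided permutation p under 0.333.

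**Figure D2:**
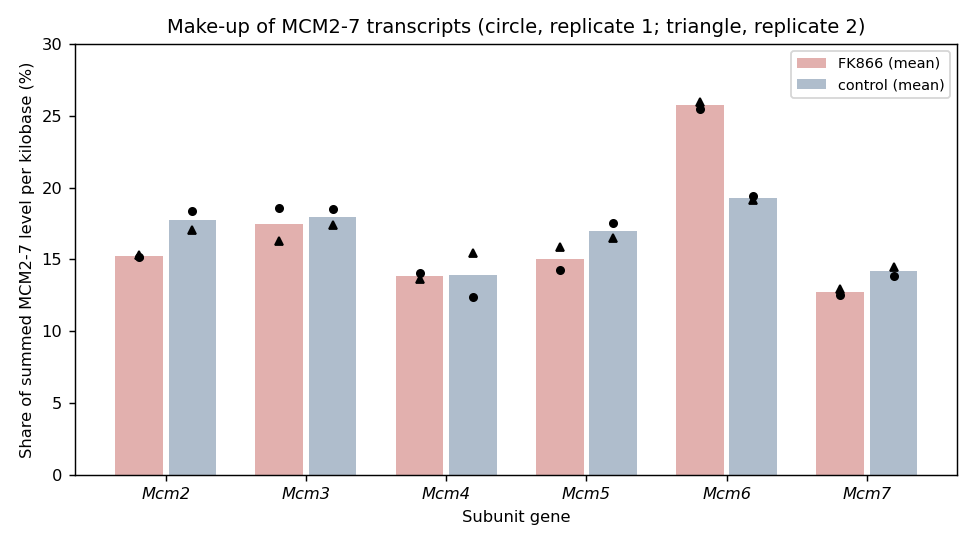
Share of each subunit in the summed level per kilobase of MCM2-7, in percent, FK866 left of control; bars are means of 2 libraries, circles replicate 1 and triangles replicate 2. The Mcm6 bars stand at 25.7% in FK866 and 19.3% in control, and the points of Mcm3 and Mcm4 overlap between the groups.

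The loaders of the ring fell to different extents. Cdc6, the ATPase that joins ORC and recruits the ring, had 5.75 and 5.999 CPM in FK866 libraries, from 155 and 204 counts, against 39.0 and 32.6 CPM in controls. The FK866 libraries were nearly identical, and both lay far below the controls. Its log2 fold change was -2.61 ± 0.21, 6.09-fold lower in FK866 (edgeR adjusted p = 0.000678), which placed it 68th from the lowest among the 19194 tested genes. Cdt1, the partner that delivers the ring, had 19.8 and 24.0 CPM in FK866 libraries, against 50.6 and 45.4 CPM in controls. FK866 replicate 2 was the higher of its pair, and still lay below both controls. Its log2 fold change was -1.13 ± 0.18 (edgeR adjusted p = 0.00650).

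Mcm10, which helps the assembled helicase to begin unwinding, was the least abundant of the 10. It had 3.41 and 3.62 CPM in FK866 libraries, from 92 and 123 counts, against 21.0 and 15.8 CPM in controls. The control libraries differed more between themselves than the FK866 libraries, and the groups stayed far apart. Mcm10 had a log2 fold change of -2.39 ± 0.26, 5.23-fold lower in FK866 (edgeR adjusted p = 0.00165), 99th from the lowest of all tested genes. Cdc45, the cofactor that turns the loaded ring into the CMG helicase, had 20.7 and 21.8 CPM in FK866 libraries, against 45.7 and 36.1 CPM in controls. The groups did not overlap, with the spread mostly in the controls. Its log2 fold change was -0.94 ± 0.19 (edgeR adjusted p = 0.0138). Of the 10 genes it was the only one that lost its call under an alternative: without FK866 replicate 1 its log2 fold change was -0.91 (edgeR adjusted p = 0.0610), while without FK866 replicate 2 all 10 were called.

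**Figure D3:**
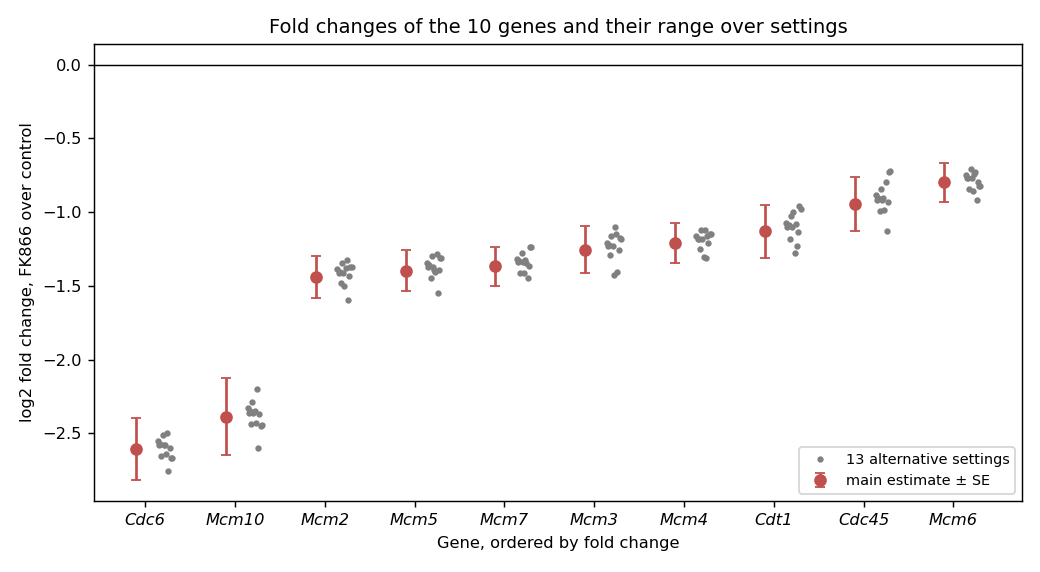
Log2 fold change, FK866 over control, of the 10 genes in order of size; red points with bars are estimates ± SE (n = 2 each) and grey dots the values under 13 alternative settings. Cdc6 (-2.61) and Mcm10 (-2.39) stand apart from the other 8 genes, which lie between -1.44 and -0.80, and no grey dot reaches 0.

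Set against the mean log2 level per kilobase of the 6 subunits in the same library, Cdc6 stood at -5.34 and -5.15 in FK866 libraries, against -3.84 and -3.94 in controls, a mean difference of -1.36 on the log2 scale. For Mcm10 the same relative level was -6.12 and -5.90 in FK866 libraries, against -4.75 and -5.00 in controls. Both genes thus stood lower against the ring subunits in both FK866 libraries than in both controls. The relative level of Cdt1 overlapped between the groups, at -2.72 and -2.31 in FK866 and -2.63 and -2.62 in control. That of Cdc45 was higher in FK866 libraries, at -2.33 and -2.12, than in controls, at -2.44 and -2.62.

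By level per kilobase the order of the 10 genes was much the same in both groups. In FK866 libraries Mcm6 led with 152 ± 1.58 TPM (mean ± SD, n = 2 here and below), then Mcm3 (103 ± 9.90), Mcm2 (89.7 ± 0.33), Mcm5 (88.8 ± 6.41), Mcm4 (81.5 ± 2.05) and Mcm7 (75.1 ± 1.75). Cdc45 (20.5 ± 2.10), Cdt1 (16.8 ± 3.35), Cdc6 (2.52 ± 0.24) and Mcm10 (1.49 ± 0.16) followed. Of neighbours in that order, Mcm2 and Mcm5, and Cdc45 and Cdt1, overlapped between libraries. In control libraries Mcm6 had 249 ± 23.0 TPM, Mcm3 233 ± 29.3, Mcm2 229.6 ± 30.6 and Mcm5 220.5 ± 28.05, each overlapping the next of these 4, followed without overlap by Mcm7 (183 ± 9.09) and then Mcm4 (179 ± 13.3), which overlapped each other. The lower levels in control were 37.1 ± 6.02 TPM for Cdc45 and 34.6 ± 2.54 for Cdt1, which overlapped, then 14.5 ± 1.80 for Cdc6 and 7.36 ± 1.44 for Mcm10. With the union of all annotated exons as length in place of the longest transcript, Mcm2 stood at 150 TPM in controls, so its place among the subunits depends on the length used.

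The genes that work directly before and after these 10 were described from lists fixed with earlier results known. Among 12 genes of ORC and licensing control, 4 fell and 1 rose, with a median log2 fold change of -0.31. The share called lower was 33.3%, against 7.89% of all genes tested, of which 5.31% were called higher. Orc1, the ORC subunit that is made and destroyed with the cycle, had 5.27 and 5.47 CPM in FK866 libraries, against 21.7 and 22.6 CPM in controls (log2 -2.04 ± 0.22, edgeR adjusted p = 0.00151). Orc6 had a log2 fold change of -0.55 that passed narrowly (edgeR adjusted p = 0.0459), and 8 of the 13 alternatives lost that call, among them those without FK866 replicate 1 (edgeR adjusted p = 0.161), FK866 replicate 2 (0.223) or control replicate 2 (0.0839), while its log2 fold change was -0.21 with a trend on transcript length and GC content removed. Orc2 to Orc5, singled out after their values were seen, were not called, with log2 fold changes between -0.37 and -0.07. The transcripts of Dtl and Gmnn, whose products restrain CDT1, fell: Dtl, the adaptor that sends CDT1 to destruction, with a log2 fold change of -1.97 (edgeR adjusted p = 0.00123), and Gmnn, which encodes geminin, with one of -1.20 (edgeR adjusted p = 0.00578). Kat7, an acetyltransferase for histones at origins, rose to 221 ± 4.05 CPM in FK866 libraries, against 141 ± 15.3 CPM in controls (log2 0.65, edgeR adjusted p = 0.0174). That call was lost without FK866 replicate 1 (edgeR adjusted p = 0.0673), without FK866 replicate 2 (0.0714) and with no filter on low counts (0.0705).

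Among 12 genes that assemble and fire the CMG helicase, 5 were called lower (41.7%, against 7.89% of all genes tested) and 0 higher, with a median of -0.28. Those called lower were the GINS subunits Gins2 (log2 -1.65, edgeR adjusted p = 0.00211) and Gins1 (-1.61, edgeR adjusted p = 0.00847), the polymerase anchor Wdhd1 (-1.44, edgeR adjusted p = 0.00227), Donson (-1.18, edgeR adjusted p = 0.00721) and Ticrr, which encodes treslin (-1.10, edgeR adjusted p = 0.0270). Of these 5 calls that of Ticrr was lost without control replicate 1 (edgeR adjusted p = 0.0869), FK866 replicate 1 (0.0874) or FK866 replicate 2 (0.0952), and the others held under all 13 alternatives. The other GINS genes, Gins3 and Gins4, had log2 fold changes of 0.25 and -0.16, and the kinase genes Cdc7 and Dbf4, which trigger firing, of 0.53 and 0.25, and none of these 4 passed. They were singled out after their values were seen. Cdc7 had an edgeR adjusted p of 0.0617 and was called higher by DESeq2 (DESeq2 adjusted p = 0.0202). It was also called higher with scaling by library totals or upper quartile, and with a stricter filter on low counts. The same held with the replicate number as block, and with the trend on transcript length and GC content removed.

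In the replication fork list 17 of 27 genes were called lower (63%, against 7.89% of all genes tested) and 0 higher, with a median of -0.74. Those with the smallest adjusted p were the fork protection pair Timeless (log2 -1.62) and Tipin (-1.37), the sliding clamp Pcna (-1.15) and the clamp loader subunit Rfc5 (-0.95). Without FK866 replicate 1, as without FK866 replicate 2, 10 of them were called. Among 18 genes of E2F, RB and S-phase cyclins, 8 were called lower (44.4%, against 7.89%) and 0 higher, with a median of -1.04. Of these Cdk2 (-1.09), the E2F partner Tfdp1 (-1.14), E2f1 (-1.63) and E2f6 (-0.83) had the smallest adjusted p. Without FK866 replicate 1, 5 were called lower and E2f6 was not among them (edgeR adjusted p = 0.0546), and without FK866 replicate 2, 7 were. In the list of G2 and mitosis, whose median was -0.42, 1 of 22 genes was called lower. It was Cdc20 (-1.03), a call lost without control replicate 1, FK866 replicate 1 or FK866 replicate 2, and 5 genes were called without control replicate 2. The mitosis list had 4.55% of its genes called lower, against 7.89% of all genes tested, but that order depends on the setting: without control replicate 2 it was 22.7% against 8.08%, and by DESeq2 18.2% against 9.91%. The share called lower in the fork list was above that of all genes in all 13 alternatives.

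**Figure D4:**
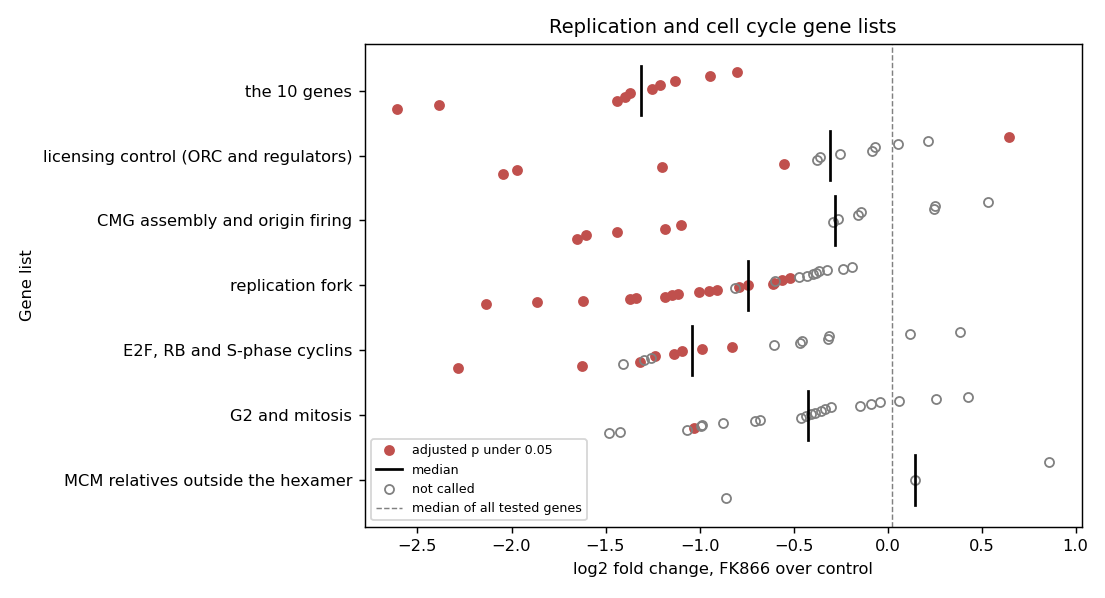
Log2 fold change, FK866 over control, of each tested gene in 7 sets; filled red points had an adjusted p under 0.05, open grey points did not, black bars are set medians and the dashed line is the median of all tested genes (0.03). The 10 licensing and helicase genes have a median of -1.31, the fork list -0.74 and the G2 and mitosis list -0.42.

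The MCM relatives that are not part of the ring gave no call. Mcm8, which acts with MCM9 in recombination repair, had 4.86 and 7.499 CPM in FK866 libraries, against 10.5 and 12.0 CPM in controls (log2 -0.86 ± 0.29, edgeR adjusted p = 0.0866). Both FK866 libraries lay below both controls, without passing the test. Mcm9 had 28.1 and 24.8 CPM in FK866 libraries, against 25.8 and 21.99 CPM in controls, which overlapped (log2 0.15). Mcmdc2, a meiotic relative, was under 1.4 CPM in every library (log2 0.86, edgeR adjusted p = 0.440). Whether their fold changes differ from those of the ring subunits was not tested.

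Of the 10 genes, 3 share a start region with a gene on the other strand. Mcm4 (chr16:15623897-15637400, GENCODE M21 on GRCm38, minus strand) starts 466 bases from Prkdc, the catalytic subunit of DNA-dependent protein kinase, which had 55.8 and 54.7 CPM in FK866 libraries, against 72.7 and 79.1 CPM in controls. Prkdc had a log2 fold change of -0.46 ± 0.14 that did not pass (edgeR adjusted p = 0.0662), against -1.21 for Mcm4. It was called lower once a trend on transcript length and GC content was removed, at log2 -0.75, and without control replicate 1, at -0.55. Cdc45 (chr16:18780447-18811987, minus strand) starts 208 bases from Ufd1 and shares 5.96% of its exon bases with it, so that counts of this pair too may be partly shared. Ufd1, a subunit of an adaptor of the p97 unfoldase, had a log2 fold change of -0.19 ± 0.13 that did not pass (edgeR adjusted p = 0.414) and turned to 0.04 with the trend removed. Mcm7 (chr5:138164583-138172422, minus strand) starts 420 bases from the adaptor complex gene Ap4m1 (log2 0.32, edgeR adjusted p = 0.498) and also shares exon bases with Cops6 (log2 -0.43, edgeR adjusted p = 0.0905), which was called lower without control replicate 2 at -0.55. None of these 4 neighbours was called with all 4 libraries, TMM scaling, no replicate block and no trend removed, and all were nearer to 0 than the member beside them. With the replicate number as block, Prkdc and Cops6 were called lower. The microRNA genes Mir25 and Mir93, inside Mcm7, had 0 counts in all 4 libraries.

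Among the 5 genes whose pattern over the 4 libraries was nearest to the mean of the 6 subunits, out of 8351 compared, were Ifi27, Mthfsd, Brip1os and Psmb10. Their root-mean-square distance from that mean was between 0.025 and 0.044 on the log2 scale, while the subunits themselves lay between 0.067 (Mcm7) and 0.223 (Mcm6) from it. Psmb10, an immunoproteasome subunit, had 97.3 and 91.2 CPM in FK866 libraries, against 229 and 221 CPM in controls. With 4 libraries in 2 groups this likeness mostly restates the size of the difference between the groups.

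Some markers of other cell types moved with the groups, and their part in the results was not tested. The 5 macrophage and monocyte markers summed to 11.2 to 13.9 CPM in FK866 libraries, against 4.51 to 5.03 CPM in controls, led by Cd68 (called higher, log2 1.41), then Adgre1 at 3.45 and 1.15 CPM in FK866 libraries, against 0.17 and 0.95 CPM in controls (log2 2.04, edgeR adjusted p = 0.158), with Itgam at or near 0. The 5 B cell markers summed to 19.3 to 25.8 CPM in FK866 libraries, against 31.6 to 34.9 CPM in controls, almost all of it Cd79b, while 4 of the 5 were under 1 CPM in every library. The 6 epithelial markers summed to 27.0 to 39.3 CPM in FK866 libraries, against 42.2 to 55.2 CPM in controls, most of it Epcam, with Krt8 at 0 counts throughout. The 5 stromal and endothelial markers summed to 190 to 228 CPM in FK866 libraries, against 144 to 183 CPM in controls, nearly all Pecam1. T cell markers (7, at 21.0 to 21.2 against 19.97 to 20.1 CPM) were led by Cd3g, and the NK cell (3.04 to 6.70 against 5.55 to 5.56 CPM), mast cell (0.67 to 1.03 against 0.03 to 1.17 CPM) and erythroid sums (2.00 to 8.57 against 3.44 to 15.7 CPM) overlapped between FK866 and control. For comparison, the 6 ring subunits summed to 1092 and 992 CPM in FK866 libraries, against 2517 and 2229 CPM in controls. Counts of mitochondrially encoded genes made up 0.55% and 0.67% of FK866 libraries, against 0.44% and 0.75% of controls.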

How the data were processed

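RNA sequencing of 2 FK866 and 2 control samples was analysed. The deposited values are raw counts of reads, 1 row for each Ensembl gene. The submitters' processing notes name HISAT2 2.2.1, cutadapt 1.9 and mm10. The counting program, annotation and strand setting were not given in the sources used here. Per the labels' protocols, libraries were made with the SMART-Seq HT and Nextera XT kits, which do not mark strand, so reads of overlapping genes cannot be told apart. Groups and replicate numbers came from the sample titles, which match the column names.

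Counts were tested two-sided with glmQLFit and glmQLFTest of edgeR 4.0.16 under R 4.3.3 (treatment as only term, TMM scaling, filterByExpr with a minimum count of 10 and total of 15). P-values were adjusted over all 19194 genes by Benjamini and Hochberg, and a gene was called under 0.05. CPM is relative to the tested genes' total times its TMM factor. The SE was taken as the absolute log2 fold change over the square root of F. TPM used the longest transcript of GENCODE M21 (GRCm38) as length. Symbols were found for 55227 of 55487 IDs. Replicates differed beyond sampling noise (chi-square per degree of freedom 19.0 in FK866 and 35.8 in control). On simulated data with 100 genes changed 2-fold and 100 changed 4-fold among 19194, the procedure recovered 71 and 100 of them, and 22 of its 193 calls were false, more than the threshold of 0.05 aims at. Alternatives were 3 scalings, 2 filters, DESeq2 1.42.0, each library left out, the replicate number as block, and an offset removing a smooth trend on transcript length and GC content (mgcv).

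Named genes were the 10 members, up to 4 called genes with the smallest adjusted p from each list (or all 3 MCM relatives), head-to-head or exon-sharing neighbours, and the 5 genes nearest in pattern; others are said to be chosen after their values were seen. Some genes that this rule takes are not reported here. Members and lists were chosen with earlier results of these data known.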

Additional observations from a re-analysis of the deposited data

How the results depend on the processing

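Over 13 alternatives, 129 of 130 values of the 10 genes kept their direction and their side of the threshold, and the exception is Cdc45 without FK866 replicate 1. The median of the 10 lay between -1.42 and -1.21, Cdc6 was lowest and Mcm10 second lowest in all 13, and 9 to 10 were called as each library was left out. With the length and GC trend removed, Cdc45 stood at -0.73 and Cdt1 at -0.96, both called. Cdc45 was then the least lowered of the 10, in place of Mcm6 (-0.82). Scaling moved the median of all genes by under 0.1 on the log2 scale.

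Replicate numbers are not said to pair samples. Deviations from the group means correlated at 0.37 between libraries numbered 1 (2 pairs allow no more than this hint), and the replicate block raised the number of genes called to 2197 higher and 3059 lower (2681 and 2295 with the trend removed as well), against 1020 and 1514. It kept all 10 members called, and called 7 genes of G2 and mitosis (5 with the trend removed) and 1 MCM relative, Mcm8, with or without the trend. Of the neighbours it called Prkdc (edgeR adjusted p = 0.00779, and 2.995e-05 with the trend removed) and Cops6 (0.00165, and 0.165 with the trend removed) lower. Genes called higher were 1749 with the stricter filter, which tests fewer genes, and 1606 with the trend removed; as each library was left out, 446 to 1046 were called higher and 725 to 1550 lower. In the fork list 10 to 19, in the E2F list 5 to 8 and in the mitosis list 0 to 5 genes were called lower as each library was left out, and in licensing control 0 to 1 was called higher. The mitosis list had 4 lower with no filter, 4 by DESeq2 and 3 with the trend removed. Licensing control had 0 higher with no filter. In the list of CMG assembly Cdc7 was called higher with library totals, upper quartile, the stricter filter, DESeq2, the replicate block or the trend removed. With the block and the trend removed both Cdc7 and Dbf4 were called higher. In the E2F list 1 was called higher with the trend removed, with or without the block. Ufd1 turned from -0.19 to 0.0439 with the trend removed, and to 0.0439 with the block as well. The causes of these changes were not tested. Mcm10 and Cdc6 rest on 92 to 204 counts in FK866 libraries, so counting error is part of their spread.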
